A study of Mus musculus with 12 samples.

Results

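The genes described here are 34 genes of glucose breakdown and of the response to low oxygen, out of 23795 genes tested on mouse arrays. They were taken by name, not by their values, and all 34 had a probe that passed the filter on dim spots. By role they are 2 glucose transporters, 17 enzymes of glycolysis (lactate dehydrogenases included), 2 regulators of phosphofructokinase, 2 lactate transporters, 2 oxygen-regulated HIF subunits and 9 other genes known as hypoxia targets. RNA came from LSK cells, a lineage-negative fraction with Sca-1 and Kit on the surface in which blood stem cells and their earliest progeny are found, of male DBA2/J mice. Marrow LSK cells came from mice given PBS. The other 3 groups were LSK cells of peripheral blood after a mobilizing treatment: G-CSF in 9 injections over 5 days, the CXCR4 blocker AMD3100 (plerixafor) for 1 hour, or CWHM-823+tGro-b, an inhibitor of the integrin VLA-4 given with a truncated CXCR2 ligand, whose time the labels do not give. Each group had 3 arrays, 12 in all. There was no group of blood from untreated mice, so treatment and tissue cannot be told apart in any difference from marrow, and the treatment times differ between the blood groups.

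Glycolysis turns glucose into pyruvate in the cytosol, and lactate dehydrogenase turns pyruvate into lactate, which leaves the cell through monocarboxylate transporters. The HIF transcription factors are made of an oxygen-labile alpha subunit and a stable partner; prolyl hydroxylases (the Egln genes) mark the alpha subunit for destruction when oxygen is present. Many glycolytic genes carry HIF binding sites, and blood stem cells, which sit in a marrow of low oxygen, are known for a strong reliance on glycolysis.

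Levels are log2 processed signals of a gene's probe, set relative to the 75th percentile of the same array, so 0 is a probe at that percentile; levels of different probes are not compared with each other. The signal at the 75th percentile was 1146 to 2724 across arrays, lowest in the AMD3100 group (1146 to 1581) and 2188 to 2724 in the G-CSF group, and 70.8 to 83.4% of probes were well above background. Of the 34 genes, 32 were above background on all 12 arrays; the exceptions were Hif1a (10 arrays) and Slc16a1 (9 arrays). The LSK identity genes Kit, Ly6a, Cd34, Flt3, Slamf1 and Procr were above background on every marrow, G-CSF and CWHM-823+tGro-b array, and 5 of the 6 were on each AMD3100 array. Their levels were not alike between groups. Ly6a, which encodes Sca-1, was 0.61 to 0.81 after G-CSF and -1.38 to -0.28 after AMD3100. Cd34, Slamf1 and Procr were also higher on every G-CSF than on any AMD3100 array. Flt3 was lower after G-CSF (1.42 to 1.85 against 2.54 to 3.10), and Kit overlapped. Marrow array 3 carried a high level of 8 neutrophil genes (summed log2 level of 4.97; the highest sum among the 9 blood arrays was 1.69). The 6 measured erythroid genes summed to 2.50 to 2.93 in marrow, 3.18 to 3.23 after G-CSF, 1.66 to 2.24 after AMD3100 and 3.68 to 4.54 after CWHM-823+tGro-b. The globin gene Hba-a1 was higher on every G-CSF array (2.68 to 2.80) than on any marrow array (-1.39 to -0.05). So was Alas2 (-3.13 to -2.61 against -3.71 to -3.33), which was above background on 9 of the 12 arrays. Klf1, Car1 and Car2 were lower on every G-CSF array, and Hbb-b1 overlapped. The median of the 6 was -2.66 to -2.22 after G-CSF against -1.20 to -0.03 in marrow. Summed levels after AMD3100 lay above those after G-CSF for 5 B cell genes (2.43 to 2.47 against 2.02 to 2.12), 4 T cell genes (1.07 to 1.60 against 0.43 to 0.77) and 5 monocyte and macrophage genes (5.02 to 5.14 against 4.79 to 4.94). A sum follows its brightest genes, and not every gene went with it. The monocyte gene Ly6c1 was higher on every G-CSF array (1.86 to 2.52) than on any AMD3100 array (1.08 to 1.85). The B cell gene Cd79b was higher after G-CSF within each slide. The part of these markers in the differences between the groups was not tested. In RNA of a sorted population, a smaller share of some cells and less RNA per cell cannot be told apart. Differences below are log2 differences of group means with the standard error (SE) of the limma fit, and a gene passed at an adjusted p under 0.05 over all 23795 genes. The arrays with the same replicate number, 1 of each group, lay on 1 slide and deviated together, so a blocked p (slide as the block) stands beside a result whose call it changes. With 3 arrays per group, their number limits the precision.

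Between the G-CSF and the AMD3100 blood cells, 9 of the 34 genes were higher after G-CSF and 0 were lower: the enzymes Hk2, Pfkl, Tpi1, Pgk1, Pgam1 and Pkm, the phosphofructokinase regulator Pfkfb3, and the hypoxia targets Bnip3 and Ndrg1. This was a comparison in which 31.1% of all genes tested passed, so the share of members that passed in either direction (26.5%) was below that of all genes. All 9 were in 1 direction, and 12.6% of all genes passed as higher after G-CSF. Among genes with a mean level above 0 that share was 17.3%. The members were chosen with earlier results known, so no p is given for these shares. Of the 9, Pfkl and Ndrg1 passed without any 1 of the 12 arrays. When 1 array was left out, 2 members passed for G-CSF array 1, 5 for G-CSF array 3 and 3 for AMD3100 array 2. Over all 23795 genes, those that passed as higher fell from 3008 to 678, 1187 and 1214, in the same order. Against marrow, few of the 34 passed: the glucose transporter Slc2a3 was higher after CWHM-823+tGro-b, and the lactate dehydrogenase Ldhb was lower after AMD3100. After G-CSF, 0 of the 34 differed from marrow by limma without the block, where 1.74% of all genes passed. At an unadjusted p under 0.05 there were 13, and 4665 of the 23795 genes tested. With the block 12 passed (11 higher, 1 lower), where 19.5% of all genes did (1961 higher, 2686 lower). With the slide block, 19 of the 34 passed between G-CSF and AMD3100 (18 higher, 1 lower), where 62.6% of all genes passed and 23% passed as higher. All comparisons with marrow use the same 3 marrow arrays, and both comparisons with AMD3100 the same 3 AMD3100 arrays.

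**Figure D1:**
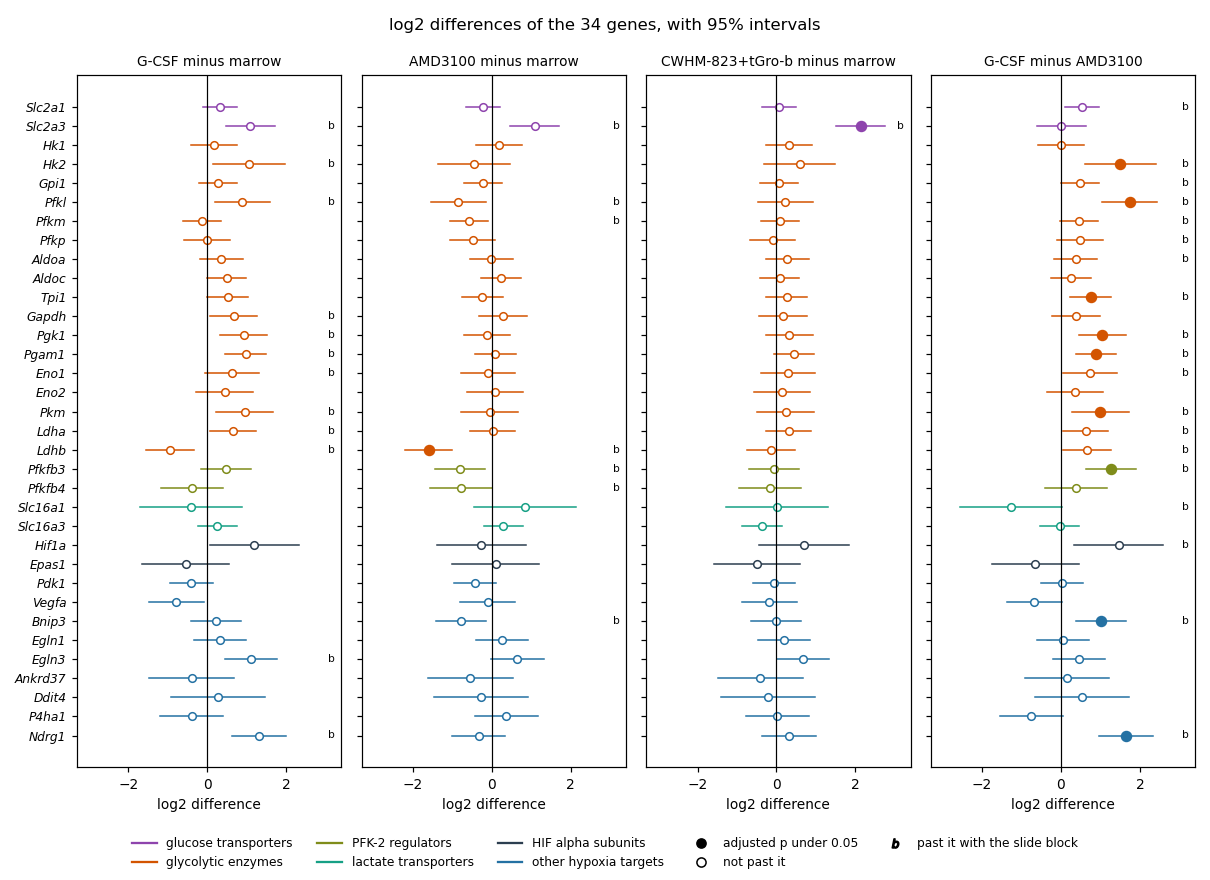
log2 differences (x axis) of the 34 genes (y axis, coloured by role) in 4 comparisons, with 95% intervals of the limma fit from 3 arrays per group; filled points passed at an adjusted p under 0.05 and "b" marks those that passed with the slide block. Filled points number 0, 1, 1 and 9 from left to right.

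The glucose transporter Slc2a3 (GLUT3, a high-affinity carrier of glucose into the cell) passed against marrow after CWHM-823+tGro-b and in the mean of the blood groups. Its level on the marrow arrays was 0.75, -0.01 and -0.05. It was 1.73, 1.08 and 1.17 after G-CSF, 1.46, 1.09 and 1.41 after AMD3100, and 2.58, 2.12 and 2.39 after CWHM-823+tGro-b. Every blood array lay above every marrow array, and the CWHM-823+tGro-b arrays lay above all other arrays. The difference from marrow was 2.13 (SE 0.29, adjusted p = 0.00419) after CWHM-823+tGro-b, a comparison in which 0.37% of all genes passed (1.08% with the block), and Slc2a3 was the member that passed in it under either fit, and without any 1 of the 12 arrays. It was 1.09 after G-CSF (SE 0.29, adjusted p = 0.0810, 0.00790 with the block) and 1.09 after AMD3100 (SE 0.29, adjusted p = 0.0840, 0.00967 with the block). The mean of the blood groups exceeded marrow by 1.44 (SE 0.23, adjusted p = 0.0130), where 0.769% of all genes passed. Without marrow array 2 or marrow array 3 the call was lost (1.32 or 1.30, adjusted p = 0.127 or 0.0831). Calls over all genes fell too, from 133 higher and 50 lower to 84 and 6, or to 83 and 49. Between blood groups, Slc2a3 was 1.04 lower after G-CSF than after CWHM-823+tGro-b (adjusted p = 0.194, 0.0198 with the block) and 1.04 higher after CWHM-823+tGro-b than after AMD3100 (adjusted p = 0.137, 0.0200 with the block). Its probe lies at bases 122678075 to 122678134 of chromosome 6 in the array's mm9 coordinates; no exon annotation of that build was used here.

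The other glucose transporter, Slc2a1 (GLUT1, the common carrier of most cells), differed from marrow by 0.32 after G-CSF, -0.22 after AMD3100 and 0.06 after CWHM-823+tGro-b, none past the threshold. Its 3 G-CSF arrays (0.23, 0.18 and 0.28) lay above its 3 AMD3100 arrays (-0.21, -0.39 and -0.34). That difference of 0.54 (SE 0.20) had an adjusted p of 0.0538, and 0.00989 with the block.

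**Figure D2:**
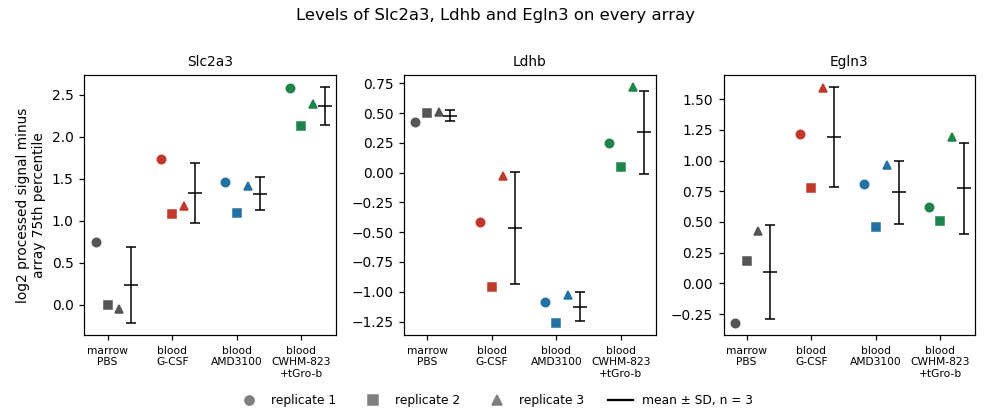
Level (y axis, log2 signal relative to the array's 75th percentile) of Slc2a3, Ldhb and Egln3 on each array by group (x axis); symbols give the replicate number and bars the mean ± SD of 3 arrays. On the probes shown, Slc2a3 and Egln3 lie higher on all 9 blood arrays than on any marrow array, and the 3 AMD3100 arrays of Ldhb (-1.26 to -1.03) lie below all others. A second Egln3 probe, not shown, overlapped.

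Hk2, the inducible hexokinase that commits glucose to the pathway, read 0.30, -0.30 and -0.48 after G-CSF and -1.27, -1.76 and -1.97 after AMD3100. Its marrow arrays were the most scattered (-0.28, -1.34 and -2.02), and those after CWHM-823+tGro-b read -0.17, -0.79 and -0.90. The G-CSF arrays all lay above the AMD3100 arrays, by 1.51 (SE 0.41, adjusted p = 0.0231). Against marrow the G-CSF value was 1.05 higher (adjusted p = 0.204, 0.0177 with the block), with overlapping arrays, and the CWHM-823+tGro-b value exceeded that of AMD3100 by 1.04 (adjusted p = 0.213, 0.0256 with the block). The first of these calls was lost without G-CSF array 1 or AMD3100 array 2 or 3 (adjusted p of 0.0514 to 0.0944). The Hk2 probe lies on chromosome 6 at bases 82675056 to 82675115 of mm9.

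Pfkl, the liver-type subunit of phosphofructokinase, the main control point of the pathway, had the largest difference between G-CSF and AMD3100 among the 34 genes. It read 1.49, 0.87 and 1.08 after G-CSF and -0.69, -0.55 and -0.54 after AMD3100, with 0.74, -0.07 and 0.11 in marrow and 1.10, 0.33 and 0.03 after CWHM-823+tGro-b. The AMD3100 arrays were below every other array and the G-CSF arrays above every marrow array. The difference between the blood groups was 1.74 (SE 0.32, adjusted p = 0.00774) and passed without any 1 of the 12 arrays. Against marrow, the values of 0.89 after G-CSF and -0.85 after AMD3100 passed only with the block (adjusted p = 0.0343 and 0.0442; 0.174 and 0.184 without it), as did the 1.08 by which CWHM-823+tGro-b exceeded AMD3100 (adjusted p = 0.0280; 0.148 without it).

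Of the enzymes of the lower pathway, Tpi1, which interconverts the triose phosphates, read 3.44, 3.08 and 3.17 after G-CSF and 2.68, 2.27 and 2.46 after AMD3100. Marrow arrays of Tpi1 read 2.53, 2.56 and 3.06, and those after CWHM-823+tGro-b 3.19, 2.82 and 2.92. G-CSF exceeded AMD3100 on all arrays, by 0.76 (SE 0.24, adjusted p = 0.0355). Its second probe gave 0.88. The call was lost without any 1 of 5 arrays (G-CSF array 1 or 3, or any AMD3100 array), with adjusted p of 0.0576 to 0.127.

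Pgk1, which makes the first ATP of the pathway, read 3.02, 2.26 and 2.43 after G-CSF. The other 9 arrays were 1.43, 1.64 and 1.86 in marrow, 1.65, 1.31 and 1.60 after AMD3100, and 2.36, 1.83 and 1.73 after CWHM-823+tGro-b. The G-CSF arrays lay above all marrow and AMD3100 arrays and overlapped those of CWHM-823+tGro-b. The difference from AMD3100 was 1.05 (SE 0.27, adjusted p = 0.0194), and that from marrow 0.92 (adjusted p = 0.112, 0.0279 with the block). Without G-CSF array 1 or 3 or AMD3100 array 2 the difference from AMD3100 had an adjusted p of 0.0501 to 0.0842.

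Pgam1, the phosphoglycerate mutase of most tissues, read 4.07, 3.76 and 3.63 after G-CSF against 3.14, 2.76 and 2.89 after AMD3100. Marrow read 2.86, 2.74 and 2.94, and CWHM-823+tGro-b 3.65, 3.12 and 3.10. The G-CSF arrays were above all marrow and AMD3100 arrays. Pgam1 was 0.89 higher after G-CSF than after AMD3100 (SE 0.24, adjusted p = 0.0212) and 0.97 higher than in marrow (SE 0.24, adjusted p = 0.0650, 0.00947 with the block). The difference from AMD3100 had an adjusted p of 0.0893 when G-CSF array 1 was left out and 0.0714 when AMD3100 array 2 was.

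Pkm, the pyruvate kinase of most tissues and the last ATP-making step, read 2.76, 2.18 and 2.97 after G-CSF and 1.82, 1.18 and 1.91 after AMD3100. It read 1.66, 1.21 and 2.20 in marrow and 2.24, 1.64 and 1.88 after CWHM-823+tGro-b. G-CSF lay above AMD3100 on all arrays, by 1.00 (SE 0.33, adjusted p = 0.0406), and overlapped marrow (0.95, adjusted p = 0.167, 0.0162 with the block). A second Pkm probe, placed on chromosome 5 rather than on chromosome 9 where the gene lies, gave 0.78 between G-CSF and AMD3100. The Pkm call was lost with quantile normalization (0.84, adjusted p = 0.0562), with the values of the authors' deposited table (0.85, adjusted p = 0.0554) and without any 1 of 5 arrays (marrow array 1, G-CSF array 1 or 3, AMD3100 array 1 or 2), where the adjusted p reached 0.141.

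**Figure D3:**
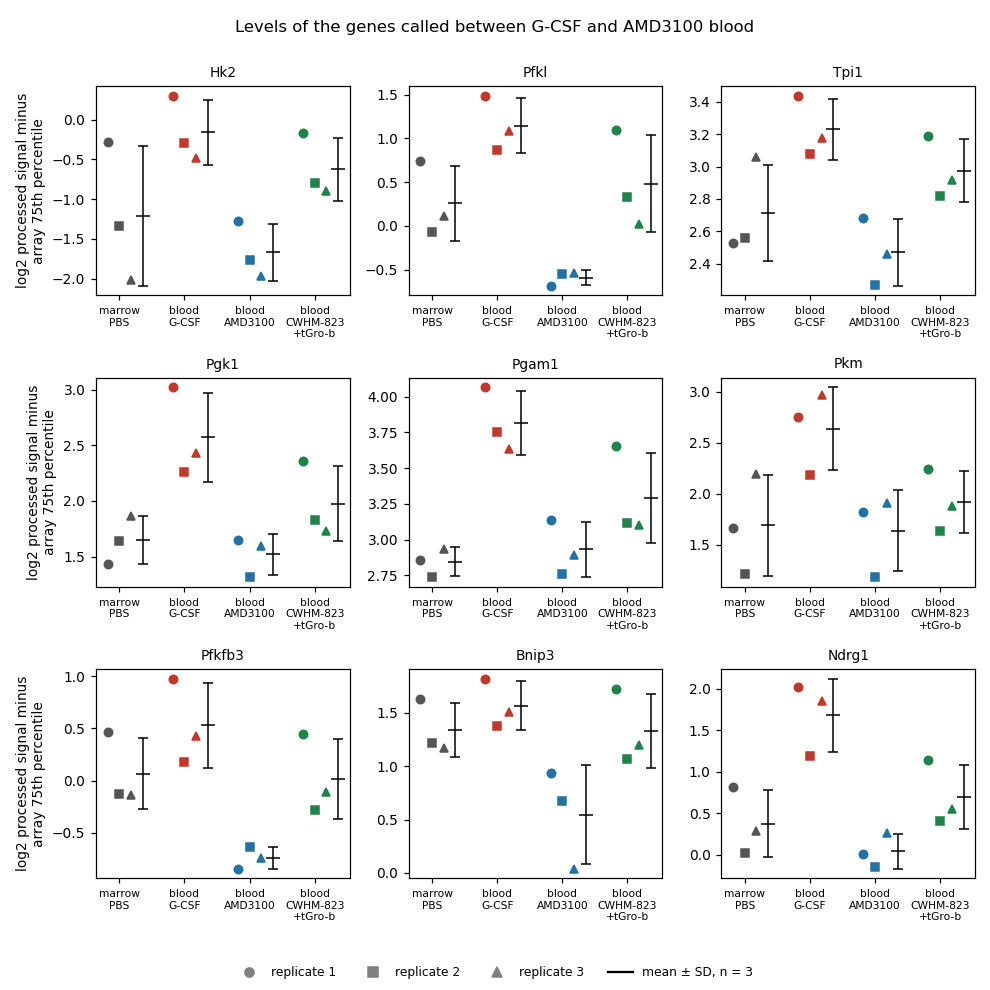
Level (y axis, log2 signal relative to the array's 75th percentile; each panel has its own range) of the 9 genes that passed between G-CSF and AMD3100 blood, on each array by group (x axis), with the mean ± SD of 3 arrays. In every panel the 3 G-CSF arrays lie above the 3 AMD3100 arrays.

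Over all 17 enzymes, 16 estimates were above 0 between G-CSF and AMD3100, with a median of 0.63 beside -0.37 over all genes tested. Without the block 6 passed as higher and 0 as lower, where 12.6% of all genes passed as higher. With it the counts were 13 and 0, where 23% of all genes passed as higher. The 7 that passed only with the block were Gpi1, Pfkm, Pfkp, Aldoa, Eno1, Ldha and Ldhb, with differences of 0.38 to 0.73; Aldoc, Gapdh and Eno2 (0.26 to 0.38) and Hk1 (-0.01) passed under neither fit. Against marrow, 14 of the 17 estimates were above 0 after G-CSF (median 0.51, all genes -0.25), 6 after AMD3100 (median -0.10, all genes 0.11) and 15 after CWHM-823+tGro-b (median 0.23, all genes -0.05). In the limma fit without the block 0 of the 17 passed after G-CSF (8 at an unadjusted p under 0.05) or after CWHM-823+tGro-b (0 at an unadjusted p under 0.05). With the block, 8 enzymes were higher and Ldhb lower after G-CSF, where 19.5% of all genes passed (1961 higher, 2686 lower). After CWHM-823+tGro-b 0 passed, where 1.08% of all genes did. The 8 were Hk2, Pfkl, Gapdh, Pgk1, Pgam1, Eno1, Pkm and Ldha, with differences of 0.63 to 1.05. Of these, Gapdh and Eno1 were read by probes that the array places off the gene's own chromosome.

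These enzymes are among the brighter probes: 13 of the 17 had a mean level above 0, as had 8208 of all genes. Among those 8208 genes the median difference of G-CSF from AMD3100 was 0.15 and 17.3% passed as higher, so the shift of all genes depended on the level. With quantile normalization, which gives every array the same distribution of signals, the median over all genes was -0.10, that over the 17 enzymes was 0.75 and 10 of the 34 members passed as higher. The share of calls higher after G-CSF was 40.7% in the fit reported here and 55.6% with quantile normalization. The part of the array signal in the difference between these groups was not tested.

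Ldhb, the lactate dehydrogenase subunit of oxidative tissues, differed from marrow in the direction opposite to most enzymes after G-CSF. It read 0.42, 0.50 and 0.51 in marrow and -1.09, -1.26 and -1.03 after AMD3100; the AMD3100 arrays lay below all others. After G-CSF it read -0.41, -0.96 and -0.03, also below all marrow arrays, and after CWHM-823+tGro-b 0.25, 0.04 and 0.72, which overlapped marrow. The fall after AMD3100 was the member call of that comparison, in which 1.42% of all genes passed (13.5% with the block): a difference of -1.60 (SE 0.27, adjusted p = 0.0173). That call did not hold without any 1 of 5 arrays (marrow array 1, 2 or 3, or AMD3100 array 1 or 2), with adjusted p of 0.0506 to 0.0781 and differences of -1.63 to -1.53. After G-CSF the difference was -0.94 (adjusted p = 0.110, 0.0186 with the block), and CWHM-823+tGro-b exceeded AMD3100 by 1.47 (adjusted p = 0.0756, 0.0125 with the block). Ldha, the subunit favoured in glycolytic tissues, differed from marrow by 0.65 after G-CSF (adjusted p = 0.213, 0.0218 with the block) and 0.02 after AMD3100, so both lactate dehydrogenase genes passed after G-CSF with the block, in opposite directions. The Ldhb probe lies on chromosome 6 at bases 142438770 to 142438829 of mm9.

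Some members were read by probes that the array places off the gene's own chromosome. The probe that stands for Hk1, the hexokinase of most tissues, lies on chromosome 5 of mm9 while the gene is on chromosome 10. It read 4.97, 4.78 and 5.20 after G-CSF and 5.13, 4.60 and 5.24 after AMD3100, a difference of -0.01. The brighter of the 2 Hk1 probes on chromosome 10 read 4.21, 3.79 and 3.99 after G-CSF and 2.98, 2.69 and 2.92 after AMD3100. That probe was 1.13 higher after G-CSF (adjusted p = 0.0109 where each gene was read by its brightest probe on its own chromosome, a setting chosen after the data were seen), and the other chromosome 10 probe 0.83. For Gapdh, all 9 probes lie off chromosome 6; their differences between G-CSF and AMD3100 ran from -0.21 to 1.24, with 8 above 0, and those between G-CSF and marrow from 0.29 to 1.02. The Eno1 probe lies on chromosome 2 and the gene on chromosome 4. The values of Gapdh, Eno1 and the chromosome 5 probe of Hk1 are therefore uncertain as values of those genes. In all, 14 members had more than 1 probe past the filter, and in 11 of them every probe had the same sign between G-CSF and AMD3100.

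**Figure D4:**
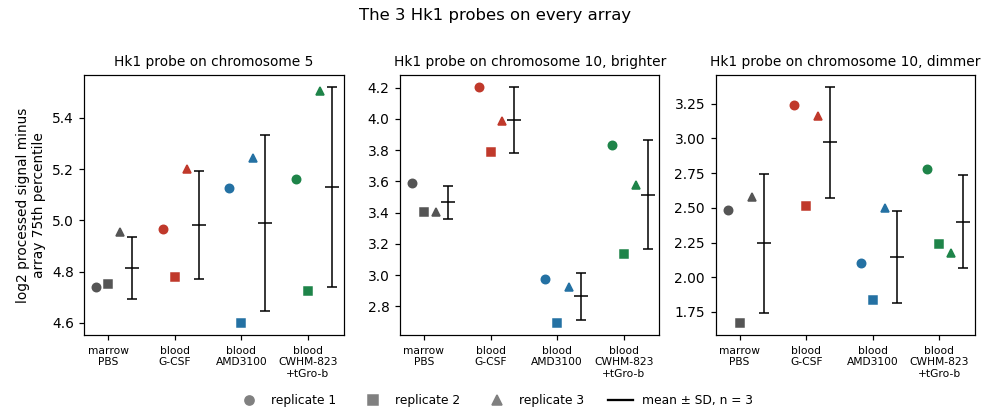
Level (y axis, log2 signal relative to the array's 75th percentile) of the 3 Hk1 probes on each array by group (x axis), with the mean ± SD of 3 arrays. Both chromosome 10 probes lie higher on each G-CSF array than on the matching AMD3100 array, whereas those groups overlap for the chromosome 5 probe.

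The regulators of phosphofructokinase make and remove fructose 2,6-bisphosphate, its strongest activator. Pfkfb3, the isoform with a strong kinase side, read 0.98, 0.18 and 0.43 after G-CSF and -0.85, -0.64 and -0.74 after AMD3100. Marrow read 0.46, -0.13 and -0.14, and CWHM-823+tGro-b 0.44, -0.29 and -0.11. On this probe the AMD3100 arrays were below all others. The difference of G-CSF from AMD3100 was 1.27 (SE 0.29, adjusted p = 0.0134), and that of AMD3100 from marrow -0.81 (adjusted p = 0.169, 0.0366 with the block). A second Pfkfb3 probe gave 0.17 between G-CSF and AMD3100, and with the mean of both probes the difference was 0.72 (adjusted p = 0.0437). Between AMD3100 and marrow the probes had opposite signs: the second probe gave 0.46, its highest array was AMD3100 array 1 (-0.30), and the mean of both gave -0.18 (adjusted p = 0.718). Without G-CSF array 1 the adjusted p of the first probe for G-CSF against AMD3100 was 0.0604. Pfkfb4 was 0.78 lower after AMD3100 than in marrow (adjusted p = 0.272, 0.0471 with the block) and passed in no other comparison.

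The lactate transporters passed in no comparison without the block, and each passed as lower in 1 comparison with it. Slc16a1 (MCT1), which carries lactate either way, was dim. It read -3.41, -3.13 and -5.17 in marrow, -3.89, -3.82 and -5.25 after G-CSF, -2.88, -3.02 and -3.28 after AMD3100, and -3.65, -3.11 and -4.91 after CWHM-823+tGro-b. It was 1.26 lower after G-CSF than after AMD3100 (SE 0.59, adjusted p = 0.107, 0.00766 with the block), and it was above background on 2 of 3 G-CSF arrays and on 3 of 3 AMD3100 arrays. Slc16a3 (MCT4), the exporter of glycolytic cells, differed by -0.03 between those groups. It was 0.65 lower after CWHM-823+tGro-b than after AMD3100 (adjusted p = 0.182, 0.0321 with the block).

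Of the HIF alpha subunits, Hif1a read -0.58, -1.76 and -1.77 after G-CSF and -3.70, -2.83 and -1.96 after AMD3100. It read -1.84, -2.29 and -3.56 in marrow and -1.58, -1.98 and -2.02 after CWHM-823+tGro-b. The difference of 1.46 between G-CSF and AMD3100 (SE 0.52) had an adjusted p of 0.0504, and passed with the block (adjusted p = 0.0412) and with quantile normalization (1.85, adjusted p = 0.0315). By slide it was 3.12, 1.07 and 0.19, so slide 1 carried most of it, and Hif1a was above background on 2 of 3 arrays in marrow and after AMD3100. Epas1 (HIF-2 alpha) passed in no comparison under either fit, and its estimates ran from -0.65 (G-CSF against AMD3100) to 0.10 (AMD3100 against marrow).

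Among the hypoxia targets, Ndrg1, a stress-responsive gene induced by low oxygen, read 2.02, 1.18 and 1.85 after G-CSF. It read 0.01, -0.16 and 0.26 after AMD3100, 0.81, 0.02 and 0.28 in marrow, and 1.14, 0.40 and 0.55 after CWHM-823+tGro-b. All 3 G-CSF arrays lay above each of the other 9. G-CSF exceeded AMD3100 by 1.64 (SE 0.31, adjusted p = 0.00853), a call that passed without any 1 array. It exceeded marrow by 1.31 (SE 0.31, adjusted p = 0.0588, 0.00653 with the block) and CWHM-823+tGro-b by 0.99 (adjusted p = 0.285, 0.0391 with the block). In that last comparison 0.626% of all genes passed, and 2.2% with the block; 0 of the 34 members passed by limma without the block (6 at an unadjusted p under 0.05) and 2 with it, Ndrg1 higher and Slc2a3 lower after G-CSF.

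Bnip3, which marks mitochondria for removal, was set apart by low AMD3100 arrays. It read 0.93, 0.67 and 0.04 after AMD3100 against 1.82, 1.38 and 1.51 after G-CSF, 1.63, 1.22 and 1.17 in marrow, and 1.72, 1.07 and 1.20 after CWHM-823+tGro-b. The AMD3100 arrays lay below all others. G-CSF exceeded AMD3100 by 1.02 (SE 0.29, adjusted p = 0.0262), the second probe gave 1.11, and AMD3100 was 0.79 lower than marrow (adjusted p = 0.177, 0.0265 with the block). Without G-CSF array 1 or 3 or AMD3100 array 2 or 3, the difference of G-CSF from AMD3100 had an adjusted p of 0.0597 to 0.0996.

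Egln3, an oxygen sensor that is itself a hypoxia target, was the other member, beside Slc2a3, with every blood array above every marrow array on its brightest probe. Marrow read -0.32, 0.18 and 0.43, G-CSF 1.22, 0.78 and 1.59, AMD3100 0.81, 0.46 and 0.96, and CWHM-823+tGro-b 0.62, 0.51 and 1.19. Of all genes tested, 0.798% had all 9 blood arrays above all 3 marrow arrays. The mean of the blood groups exceeded marrow by 0.81 (adjusted p = 0.232, 0.0343 with the block), and G-CSF by 1.10 (SE 0.30, adjusted p = 0.0982, 0.0127 with the block). A second Egln3 probe, above background on 11 arrays, overlapped. It read -4.55, -3.72 and -2.92 in marrow, -2.76, -3.69 and -2.95 after AMD3100, and -2.70, -3.34 and -1.81 after CWHM-823+tGro-b. After G-CSF that probe read -2.20, -2.24 and -1.99, above all marrow arrays. With the block, Slc2a3 and Egln3 were higher and Ldhb lower in blood, 3 of the 34 members where 2.81% of all genes passed.

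The other 6 hypoxia targets passed in no comparison under either fit: Pdk1, which switches off pyruvate dehydrogenase, the angiogenic factor Vegfa, the oxygen sensor Egln1, Ankrd37, Ddit4, an inhibitor of growth signalling, and P4ha1, an enzyme of collagen folding. Between G-CSF and AMD3100 their differences ran from -0.76 (P4ha1) to 0.54 (Ddit4). Ddit4 spread widely in marrow (0.94, -0.29 and -1.60). Across the 9 targets, 2 passed as higher after G-CSF than after AMD3100 under either fit, where 12.6% of all genes did, and 23% with the block. Their median was 0.15 beside 0.63 for the enzymes and -0.37 for all genes. The probes of the targets were dimmer than those of the enzymes, and the shift of all genes depended on the level. The part of the level in these medians was not tested.

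Glycolytic enzymes and the other hypoxia targets were set side by side on each array, as the mean of 17 enzymes minus the mean of 9 targets. This value is read between arrays, not as a level of enzymes against targets. The difference was 2.45, 2.66 and 2.92 on the marrow arrays, 3.02, 3.00 and 3.00 after G-CSF, 2.63, 2.53 and 2.59 after AMD3100, and 2.93, 2.64 and 2.97 after CWHM-823+tGro-b. The G-CSF arrays lay above all others and the AMD3100 arrays below the other blood arrays, while marrow spanned nearly the whole range. The enzyme mean alone was 2.70, 2.31 and 2.55 after G-CSF and 2.00, 1.65 and 1.85 after AMD3100, without overlap. It includes the off-chromosome probes of Hk1, Gapdh and Eno1, which are uncertain as values of those genes. The target mean was -0.31, -0.69 and -0.45 after G-CSF and -0.64, -0.88 and -0.74 after AMD3100; the groups overlapped, but within each slide it was higher after G-CSF, by 0.32, 0.20 and 0.30. The enzyme mean was higher by 0.71, 0.66 and 0.70 within the same slides. As the genes were chosen with earlier results known, no p is given for these means. Group means lay at 1.83 to 2.52 for the enzymes and at -0.75 to -0.48 for the targets. The shift of all genes between G-CSF and AMD3100 depended on the level, and its part in these differences was not tested. Against marrow, the medians of enzymes and targets were 0.51 and 0.23 after G-CSF, -0.10 and -0.28 after AMD3100, and 0.23 and -0.01 after CWHM-823+tGro-b. Without marrow array 3, the array with the neutrophil genes, the target median after G-CSF was -0.26 in place of 0.23.

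**Figure D5:**
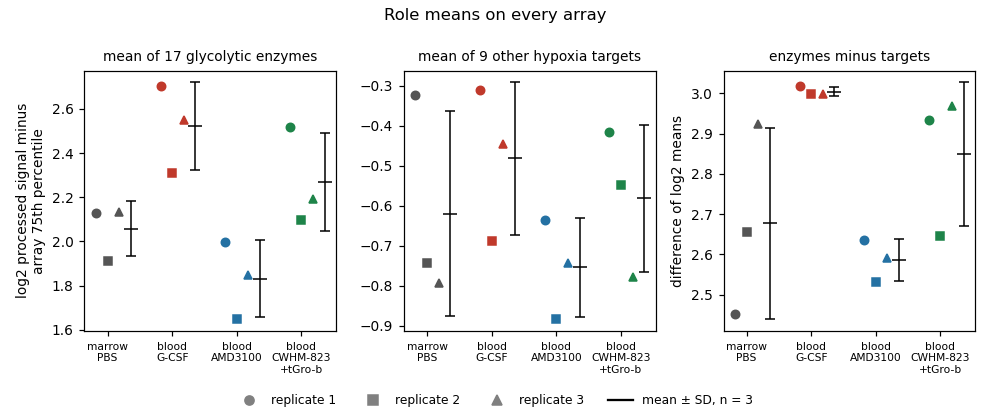
Mean level (y axis, log2 signal relative to the array's 75th percentile) of 17 glycolytic enzymes and of 9 other hypoxia targets on each array by group (x axis), and their difference, with the mean ± SD of 3 arrays. The enzyme means of the G-CSF arrays (2.31 to 2.70) lie above those of the AMD3100 arrays (1.65 to 2.00), while the target means overlap between groups and are higher after G-CSF within each slide.

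Between CWHM-823+tGro-b and AMD3100, 0.147% of all genes and 0 of the 34 members passed by limma (8 members at an unadjusted p under 0.05); with the block, 16.8% of all genes and 9 members did. The members were Slc2a3, Hk2, Pfkl, Pfkm, Ldhb, Pfkfb3, Bnip3 and Ndrg1, higher after CWHM-823+tGro-b by 0.66 to 1.47, and Slc16a3, lower. The second Pfkfb3 probe went the other way, with group means of -1.19 after CWHM-823+tGro-b and -0.89 after AMD3100. With the mean of both probes the Pfkfb3 difference was 0.23 (adjusted p = 0.568 by limma without the block). Without overlap of the arrays, 12 members were higher and 1 lower after CWHM-823+tGro-b than after AMD3100. The share of all genes without overlap was not counted there, so no result about the members is read from these counts. Between G-CSF and AMD3100, 16 members had all 3 G-CSF arrays above all 3 AMD3100 arrays, as had 19.8% of all genes. In 1 member they lay all below, a direction for which the share of all genes was not counted.

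The upstream sequence of some genes that passed as higher after G-CSF than after AMD3100 is shown so that shared and unshared letters can be seen. That of Ldhb, which was lower after AMD3100 than in marrow, stands beside them. Ldhb was also 0.66 higher after G-CSF than after AMD3100 (adjusted p = 0.0785 by limma, 0.0164 with the block), so it is not a contrast in direction. HIF is known to bind the core ACGTG or GCGTG. Each line gives the 160 bases before the start site, 5′ to 3′ in the direction of the gene, from RefSeq's GRCm38.p6 promoter table, with either core on either strand in capitals (on the other strand they read CACGT and CACGC).
Pgk1: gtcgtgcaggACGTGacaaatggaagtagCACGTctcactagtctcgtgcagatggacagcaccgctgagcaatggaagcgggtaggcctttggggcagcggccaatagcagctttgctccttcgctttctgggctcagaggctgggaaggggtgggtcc
Pgam1: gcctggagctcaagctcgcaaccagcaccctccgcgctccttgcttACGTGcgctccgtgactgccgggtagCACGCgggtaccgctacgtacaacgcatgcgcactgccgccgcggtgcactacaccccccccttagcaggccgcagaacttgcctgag
Pfkl: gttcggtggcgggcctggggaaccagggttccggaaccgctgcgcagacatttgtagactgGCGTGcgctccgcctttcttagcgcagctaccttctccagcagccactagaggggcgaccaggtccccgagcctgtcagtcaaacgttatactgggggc
Hk2: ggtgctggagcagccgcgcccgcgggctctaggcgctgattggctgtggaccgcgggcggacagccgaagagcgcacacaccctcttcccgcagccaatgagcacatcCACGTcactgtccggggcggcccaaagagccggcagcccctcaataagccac
Bnip3: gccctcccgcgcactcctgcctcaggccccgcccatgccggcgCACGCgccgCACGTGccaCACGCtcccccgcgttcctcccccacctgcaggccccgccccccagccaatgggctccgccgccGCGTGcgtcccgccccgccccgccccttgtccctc
Tpi1: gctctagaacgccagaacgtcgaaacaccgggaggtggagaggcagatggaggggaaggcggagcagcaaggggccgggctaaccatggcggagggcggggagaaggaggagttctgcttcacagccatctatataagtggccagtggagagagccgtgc
Ldhb: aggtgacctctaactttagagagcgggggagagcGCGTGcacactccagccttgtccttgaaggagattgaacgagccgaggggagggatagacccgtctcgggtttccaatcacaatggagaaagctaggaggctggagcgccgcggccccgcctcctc
These stretches are chrX:106186940-106187099 (+ strand), chr19:41911711-41911870 (+ strand), chr10:78009808-78009967 (- strand), chr6:82774455-82774614 (- strand), chr7:138909507-138909666 (- strand), chr6:124814159-124814318 (- strand) and chr6:142507958-142508117 (- strand). Pgk1 and Pgam1 hold 2 matches each, Pfkl, Hk2 and Ldhb 1 each, and Bnip3 5, of which an overlapping pair reads CACGTG on both strands. Tpi1, which passed like the others, holds none in this stretch or in its whole window of 300 bases.

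The table held a window from 250 bases before to 50 after the start site for 31 of the 34 genes (all but Slc2a3, Epas1 and Ndrg1). Of the 31, 28 had at least 1 match in any of their windows (90.3%), against 46.7% of the 27025 genes of the table. Tpi1, Gpi1 and Eno2 had none. With genes of a single window, the shares were 18 of 21 (85.7%) and 43.1% of 22862. Both cores hold a CG, and the members' windows were richer in it: the median window had 21 CG pairs and 63.2% G or C, against 7 and 52.8% over the table. The part of base composition in the share was not tested, and a match is not a measured binding site.

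Genes around the pathway were taken from lists that hold no member. Between G-CSF and AMD3100, 31.1% of all genes passed and 12.6% passed as higher after G-CSF. With the block these shares were 62.6% and 23%, and the counts below stand beside them. In the pentose phosphate pathway, which branches off glycolysis and makes NADPH, 5 of 7 genes were higher after G-CSF than after AMD3100 and 0 lower (median 1.20). They included Pgd (1.39, adjusted p = 0.0103), Rpia (1.42, adjusted p = 0.0139), Taldo1 (1.20, adjusted p = 0.0148) and Tkt (1.20, adjusted p = 0.0386). Among genes of pyruvate entry into mitochondria, 6 of 11 were higher and 0 lower (median 0.91): the pyruvate carriers Mpc1 (1.44, adjusted p = 0.0117) and Mpc2 (1.26, adjusted p = 0.0213), and the pyruvate dehydrogenase subunits Pdhb (1.35, adjusted p = 0.0102) and Pdha1 (0.91, adjusted p = 0.0168) were among them. Of 14 other glycolysis genes, 3 were higher and 3 lower (median -0.03), among them Pgm1 (1.29, adjusted p = 0.0165) and Bpgm (1.25, adjusted p = 0.0211) higher, and the pyruvate kinase of liver and red cells, Pklr (-1.67, adjusted p = 0.0153), lower. With the block, 6 pentose phosphate genes were higher and 0 lower, 6 genes of pyruvate entry were higher and 1 lower, and 4 other glycolysis genes were higher and 5 lower.

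Of 14 further hypoxia targets, 5 were higher after G-CSF than after AMD3100 and 0 lower (median 0.61; with the block 5 higher and 2 lower, Car9 at -0.38 with a blocked adjusted p of 0.0449 and Stc2 at -0.71 with 0.0387), with the transcriptional repressor Bhlhe40 far ahead (3.62, SE 0.50, adjusted p = 0.00386), then Insig2 (1.15, adjusted p = 0.0142), Fam162a (0.95, adjusted p = 0.0214) and Higd1a (0.89, adjusted p = 0.0221). Of all genes, 12.6% passed as higher after G-CSF than after AMD3100, and 23% with the block. Bhlhe40 was at 1.27 ± 0.48 (SD, n = 3) after G-CSF, -2.23 ± 0.17 in marrow, -2.36 ± 1.06 after AMD3100 and -1.83 ± 0.75 after CWHM-823+tGro-b. Without the block, it was the 1 gene of the 53 in these lists that passed for G-CSF against marrow (3.50, adjusted p = 0.00373) and for G-CSF against CWHM-823+tGro-b (3.10, adjusted p = 0.0151). With the block, 20 of the 53 passed for G-CSF against marrow (16 higher, 4 lower), where 19.5% of all genes did, among them 5 of the 7 pentose phosphate genes, higher, and Hif3a, lower (-1.08, blocked adjusted p = 0.00581); 2 passed for G-CSF against CWHM-823+tGro-b. Of 7 genes of HIF regulation, Hif3a, which encodes an alpha subunit that can restrain the others, was lower after G-CSF than after AMD3100 (-0.95, adjusted p = 0.0196). Vhl, whose product recognises hydroxylated HIF alpha subunits, was 0.69 higher (adjusted p = 0.174, 0.0465 with the block). In the other comparisons with marrow, and between CWHM-823+tGro-b and AMD3100, 0 of 53 genes of these lists passed by limma without the block (at an unadjusted p under 0.05, 12 after AMD3100, 3 after CWHM-823+tGro-b, 8 for the mean of the blood groups and 12 between CWHM-823+tGro-b and AMD3100); with it 7 passed after AMD3100, 2 after CWHM-823+tGro-b, 2 for the mean of the blood groups and 12 between CWHM-823+tGro-b and AMD3100. The blocked shares of all genes in these comparisons were 13.5%, 1.08%, 2.81% and 16.8%, in that order. At an unadjusted p under 0.05 there were 4440, 1345, 2067 and 4732 of the 23795 genes tested, in the same order. For G-CSF against CWHM-823+tGro-b the blocked share was 2.2%. With the block, 1961 of all genes were higher and 2686 lower for G-CSF against marrow.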

How the data were processed

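RNA of LSK cells was measured on 12 one-colour Agilent mouse arrays, 3 per group. The deposited scanner output gives a processed signal intensity per spot, which the authors extracted with Agilent Feature Extraction 11.5.1.1 per the submitters' processing notes; a second deposited table holds their normalized intensity values for 30354 probes on a linear scale, with the normalization not given in the sources used here. Control spots and outliers were left out of the 43020 spots and the rest averaged to 39429 probes; 0 spots were saturated. Signals were put on the log2 scale relative to the 75th percentile of their array. A probe had to exceed background on every array of some group, and each gene was read by its brightest probe, for 23795 genes. Names of 28330 probes were brought up to date by accession (GRCm38.p6).

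Group means were estimated from all arrays together in limma 3.58.1 (functions lmFit, contrasts.fit and eBayes; R 4.3.3), two-sided, with Benjamini-Hochberg adjustment over all genes within each of 7 comparisons. The procedure was tested on simulated data with independent noise on each array, which does not cover deviations shared by the arrays of a slide. Arrays that share a replicate number lay on the same slide; in deviations from group means, the 18 same-numbered pairs of arrays correlated at r = 0.260 to 0.616 across genes and the 36 other pairs at a median of -0.240, so the numbers were taken as pairing the arrays. The labels do not say that a group's arrays are separate mice; p-values then cover just the spread among these samples, which may be technical. The members and gene lists were chosen with earlier results of these data known. Values on every array are given for members that passed in at least 1 comparison, or passed with the block at a log2 difference of at least 1; from other lists at most 4 passing genes per comparison are named, by smallest p. Alternatives were quantile normalization, normexp (offset 50), the authors' values, no filter, the mean of a gene's probes, the slide block and leaving out each array; probes on the gene's own chromosome were added after the data were seen.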

Additional observations from a re-analysis of the deposited data

Results flagged for a closer look

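G-CSF and AMD3100 blood cells differed in 9 of the 34 genes (26.5%) by their direct test in limma over all arrays, where 31.1% of all genes passed. All 9 passed as higher after G-CSF, as did 12.6% of all genes. Each of the other pairs of blood groups had 0 member calls without the block (at an unadjusted p under 0.05, 6 for G-CSF against CWHM-823+tGro-b and 8 for CWHM-823+tGro-b against AMD3100). The log2 differences were 1.51 for Hk2, 1.74 for Pfkl, 0.76 for Tpi1, 1.05 for Pgk1, 0.89 for Pgam1, 1.00 for Pkm, 1.27 for Pfkfb3, 1.02 for Bnip3 and 1.64 for Ndrg1. In each of the 9, all 3 G-CSF arrays lay above all 3 AMD3100 arrays. The signal at the 75th percentile was also higher on every G-CSF array (2188 to 2724) than on any AMD3100 array (1146 to 1581), and its part in these differences was not tested.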

How the results depend on the processing

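Counts are members that passed of 34, and percentages the share of all genes tested that passed. With the slide as a block, which is the replicate block of the paired design, 12 members and 19.5% passed for G-CSF against marrow, 7 and 13.5% for AMD3100 against marrow, 3 and 2.81% for the mean of the blood groups, 19 and 62.6% for G-CSF against AMD3100, 2 and 2.2% for G-CSF against CWHM-823+tGro-b, and 9 and 16.8% for CWHM-823+tGro-b against AMD3100. For CWHM-823+tGro-b against marrow 1.08% passed and the member call did not change. With quantile normalization 2 members and 3.13% passed for AMD3100 against marrow, and 1 and 0.45% for CWHM-823+tGro-b against AMD3100. With normexp background correction the shares in those comparisons were 0.714% and 0.0378%, and 1 member, Ndrg1, passed for G-CSF against marrow. With the values of the authors' table, the shares were 1.15% for G-CSF against marrow, 2.35% for AMD3100 against marrow, 0.426% for G-CSF against CWHM-823+tGro-b and 0.0344% for CWHM-823+tGro-b against AMD3100. Without a filter, 0.555% passed for AMD3100 against marrow. Read by its brighter probe on chromosome 10, Hk1 turned from -0.01 to 1.13 between G-CSF and AMD3100. Higher and lower calls over all genes were 3008 and 4382 for G-CSF against AMD3100, 3297 and 2629 with quantile normalization, and 3068 and 2546 in the authors' values. For G-CSF against marrow they were 281 and 132, then 282 and 70 with quantile normalization, 292 and 65 with normexp, and 221 and 46 in the authors' values. The causes were not tested.

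Leaving out 1 array gave 0.782 to 3.12% and 0 to 1 members for G-CSF against marrow, 0.261 to 1.35% and 0 to 1 for AMD3100 against marrow, 0.223 to 0.361% for CWHM-823+tGro-b against marrow, 0.378 to 0.702% and 0 to 1 for the mean of the blood groups, 6.18 to 43% and 2 to 11 for G-CSF against AMD3100, 0.298 to 0.769% for G-CSF against CWHM-823+tGro-b, and 0.0462 to 0.303% and 0 to 1 for CWHM-823+tGro-b against AMD3100. The median of the hypoxia targets for G-CSF against marrow ran from -0.26 (without marrow array 3) to 0.30. Dim probes limit Slc16a1 and Hif1a, and 3 arrays per group limit every call.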
